A study of Mus musculus with 2 samples.

Results

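Intergenic DNase I peaks at middle distance were peaks whose midpoint lay outside every annotated gene body and more than 10 kb but at most 100 kb from the nearest start of a protein-coding transcript, on the mouse assembly mm10 with the GENCODE M21 annotation. In replicate 1 there were 19469 such peaks among 140127, and in replicate 2 there were 15703 among 114404. They made up 13.9% and 13.7% of all peaks, a mean of 13.8% ± 0.12 (SD, n = 2). They are called members below. Where a sentence gives a value for each animal, replicate 1 stands first.

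The tissue was cerebellum of 2 male B6CASTF1/J mice, the F1 hybrid of C57BL/6J and CAST parents, at 36 days of age and with no treatment named. Each animal gave 1 DNase-seq library, in which the enzyme DNase I cuts accessible DNA of isolated nuclei. Both animals form 1 group and carry the same donor entry in the labels, so nothing could be tested between groups or animals, and the SD may hold little beyond library preparation. All cell types of the cerebellum were mixed, so a low peak in all cells and a high peak in few cells cannot be told apart.

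Accessible DNA between genes holds several kinds of regulatory element. Enhancers are bound by transcription factors and act on promoters from a distance, and many of those active in neurons lie far from the promoter they act on. Binding sites of CTCF, a zinc finger protein that with cohesin shapes chromatin loops, are often found far from genes and leave a clear protected stretch, or footprint, in DNase I data. Promoters of non-coding RNAs, or of transcripts missing from an annotation, can also appear as intergenic peaks.

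Of the members that both animals share, 7 high ones are printed here from RefSeq's GRCm38.p6 sequence, 5′ to 3′ on the plus strand. Capitals mark bases in footprints of replicate 1. Each name is the protein-coding gene with the nearest start. The first 3 carry the CTCF consensus in a footprint in both animals. The next 3 are among the highest of all shared members. These first 6 hold 6.36 to 13 CpG per 100 bp. The Irf2bp2 member lies in an element that RefSeq lists as tested for enhancer activity in mouse embryos, and was added after its value was seen.
Gm15319, chr8:20424741-20424920: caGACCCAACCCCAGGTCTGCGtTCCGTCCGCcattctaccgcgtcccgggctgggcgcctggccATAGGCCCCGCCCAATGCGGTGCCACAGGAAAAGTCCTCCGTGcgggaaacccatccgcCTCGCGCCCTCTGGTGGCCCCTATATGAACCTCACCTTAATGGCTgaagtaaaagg
4930467E23Rik, chr8:19784521-19784740: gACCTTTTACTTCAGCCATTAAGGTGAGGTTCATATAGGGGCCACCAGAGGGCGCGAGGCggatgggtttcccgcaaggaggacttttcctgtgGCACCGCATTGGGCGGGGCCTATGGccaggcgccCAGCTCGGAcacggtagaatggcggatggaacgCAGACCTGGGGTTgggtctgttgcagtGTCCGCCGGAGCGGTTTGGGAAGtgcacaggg
Chd2, chr7:73618321-73618620: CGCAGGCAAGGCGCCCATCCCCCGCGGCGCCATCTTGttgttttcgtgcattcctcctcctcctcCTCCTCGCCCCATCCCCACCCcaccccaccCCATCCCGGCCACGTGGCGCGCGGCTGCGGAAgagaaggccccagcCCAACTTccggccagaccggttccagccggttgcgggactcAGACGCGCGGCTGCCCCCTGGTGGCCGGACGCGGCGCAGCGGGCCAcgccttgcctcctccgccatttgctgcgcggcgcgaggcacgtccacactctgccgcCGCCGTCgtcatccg
Cct8l1, chr5:25529611-25529910: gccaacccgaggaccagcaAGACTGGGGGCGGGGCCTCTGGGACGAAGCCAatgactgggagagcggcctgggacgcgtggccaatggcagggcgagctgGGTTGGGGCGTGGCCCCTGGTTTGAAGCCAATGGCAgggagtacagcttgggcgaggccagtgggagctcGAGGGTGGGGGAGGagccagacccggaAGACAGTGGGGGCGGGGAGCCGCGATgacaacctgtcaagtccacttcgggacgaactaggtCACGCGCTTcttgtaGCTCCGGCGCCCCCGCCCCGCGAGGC
Ptma, chr1:86487461-86487760: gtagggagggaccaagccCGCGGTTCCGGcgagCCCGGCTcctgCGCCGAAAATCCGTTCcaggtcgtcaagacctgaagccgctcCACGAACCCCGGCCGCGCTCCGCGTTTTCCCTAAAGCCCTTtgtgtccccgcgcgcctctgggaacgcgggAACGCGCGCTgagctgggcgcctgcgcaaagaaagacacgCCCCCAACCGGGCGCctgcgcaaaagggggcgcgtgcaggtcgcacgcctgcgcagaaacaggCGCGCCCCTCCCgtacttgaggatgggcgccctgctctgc
Ccne1, chr7:38084881-38085140: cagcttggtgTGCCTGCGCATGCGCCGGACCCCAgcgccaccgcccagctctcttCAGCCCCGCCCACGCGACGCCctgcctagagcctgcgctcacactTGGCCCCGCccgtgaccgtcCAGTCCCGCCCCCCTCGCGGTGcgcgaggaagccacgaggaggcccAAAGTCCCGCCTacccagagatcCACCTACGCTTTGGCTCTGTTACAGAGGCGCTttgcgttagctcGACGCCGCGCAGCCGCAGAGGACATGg
Irf2bp2, chr8:126666501-126666640: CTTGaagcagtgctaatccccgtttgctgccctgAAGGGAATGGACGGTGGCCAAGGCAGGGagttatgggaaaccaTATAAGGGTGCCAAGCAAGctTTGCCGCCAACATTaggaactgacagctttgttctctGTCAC

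Counted from 1 at the left end, the CTCF match took positions 130 to 141 on the minus strand in the Gm15319 sequence, 42 to 53 on the plus strand in the 4930467E23Rik sequence and 195 to 206 on the minus strand in the Chd2 sequence. The first 2 share an identical stretch of 74 bp on opposite strands. For these 2 members 78.5% and 73.5% of all 32 bp stretches occurred elsewhere in the assembled chromosomes, and how reads from such copies were placed is not stated. The other 5 printed members had no such stretch elsewhere. In the Cct8l1 sequence the SP and KLF consensus GGGGCGGGG, read on both strands, was found 3 times, each with its centre in a footprint. An NRF1 site took positions 16 to 25 of the Ccne1 sequence, in a footprint. TTGGCA, an arm of the NFI site, took positions 86 to 91 of the Irf2bp2 sequence, again in a footprint.

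The highest shared member of all, 61.6 kb upstream of Gm15319, reached heights of 49.6 and 31.5 and lay 0.017 kb from the start of a transcribed pseudogene, 2610005L07Rik. Height is the signal the authors deposited for each peak, on a scale of its own in each animal. The member near Cct8l1 had heights of 48.4 and 28.02 and lay 0.252 kb from the start of the long non-coding RNA 1700096K18Rik. These 2 ranked 8 and 11 among all peaks of replicate 1, and 6 and 21 in replicate 2. The member 16.8 kb upstream of Chd2, a chromatin remodeller gene, reached 32.7 and 22.8 and lay 0.196 kb from the start of 1810026B05Rik. It is not the printed Chd2 member, which lay 76.7 kb upstream and reached 27.2 and 15.8, with its nearest non-coding start 8.96 kb away. That near Ptma, which encodes prothymosin alpha, reached 33.8 and 20.9, with its nearest non-coding start 13.95 kb away. It had 13 CpG per 100 bp. The member near Tmpo, a nuclear lamina protein gene, had 13.3 CpG per 100 bp and heights of 36.7 and 18.2. It lay 0.516 kb from the start of another Tmpo transcript.

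With no GENCODE transcript start or RefSeq gene start within 1 kb lay the member 72.6 kb upstream of Irf2bp2, a transcriptional corepressor gene. It had heights of 36.4 and 18.8 and 2.14 CpG per 100 bp. The RefSeq element there, mm1295, is listed with forebrain activity in embryos. The member 21.6 kb upstream of Igf2bp3, an RNA-binding protein gene, reached 28.3 and 26.3, but 87.9% of its 32 bp stretches occurred elsewhere. Members 12.97 kb upstream of Coro2b, an actin-binding coronin gene, and 11.9 kb downstream of Fam69b carried CTCF in footprints, with heights of 19.7 and 12.5, and of 20.5 and 10.8. The Fam69b member lay 0.061 kb from the start of the antisense RNA Snhg7os. The printed member near 4930467E23Rik lay 0.115 kb from the start of a processed pseudogene, Gm10060. Of the 10 highest shared members, 5 lay within 1 kb of the start of a gene in the RefSeq annotation. Another, near A830005F24Rik, lay 0.151 kb from the start of the long non-coding RNA 6720427I07Rik in GENCODE. The member near Ccne1 lay inside Gm30771, a long non-coding RNA gene in RefSeq.

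Middle-distance sequence held fewer peaks than its length would give if peaks were spread evenly. Sequence that meets the rule spans 511.7 Mb, or 19.3% of the ungapped genome, so the share of peaks was 0.719 and 0.710 times the share of the genome. Members numbered 38.0 and 30.7 per Mb, a mean of 34.4 ± 5.2 (SD, n = 2). Nearer intergenic sequence, more than 1 kb and at most 10 kb from a start, held 50.9 and 39.6 peaks per Mb. Far intergenic sequence, over 100 kb away, held 18.8 and 14.6. The order near, middle, far was the same in both animals.

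Within the range, density and height were lower in the farthest bin than in the nearest. Between 10 and 20 kb there were 41.7 and 32.6 members per Mb, and between 90 and 100 kb there were 32.2 and 26.3. Density was not ordered by distance throughout. In replicate 2 it was highest between 30 and 40 kb, at 33.5 per Mb, and in both animals it was lowest between 80 and 90 kb, at 30.5 and 24.9. Median heights were 0.824 and 1.01 between 10 and 20 kb, and 0.461 and 0.553 between 90 and 100 kb. At the lower limit, peaks between 9 and 10 kb had median heights of 0.9295 and 1.19, and those between 10 and 11 kb of 0.856 and 1.08. At the upper limit the medians were 0.439 and 0.583 just inside and 0.496 and 0.741 just outside, over 94 and 84 peaks in replicate 1 and 74 and 56 in replicate 2. The median distance to the nearest protein-coding start was 35.1 and 35.4 kb.

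**Figure D1:**
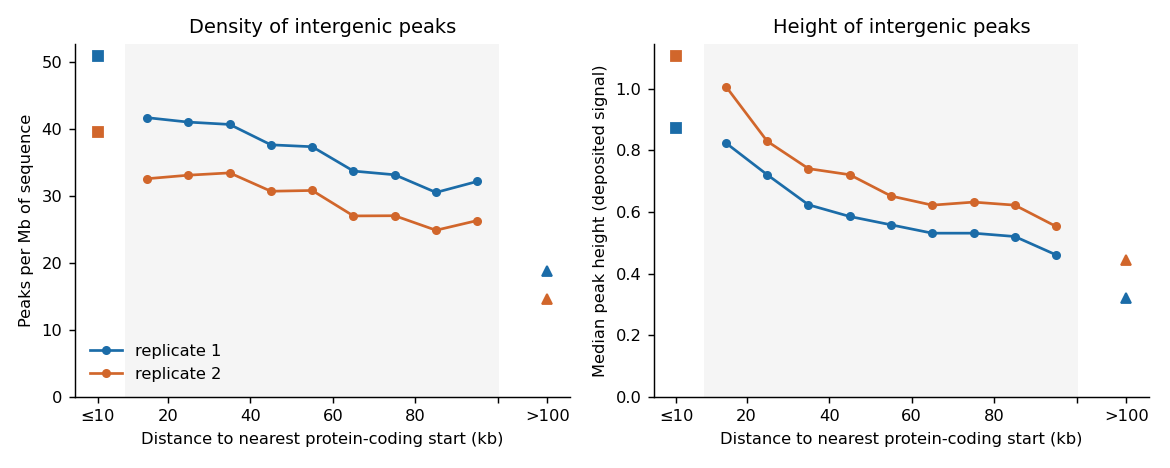
Peaks per Mb of sequence (left) and median peak height as deposited (right) against distance to the nearest protein-coding start. Circles are members in bins of 10 kb, squares are intergenic peaks more than 1 kb and at most 10 kb away, triangles those over 100 kb away, and colours are the 2 animals. Density is 41.7 and 32.6 per Mb in the nearest bin and 32.2 and 26.3 in the farthest.

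Most members were low. Median heights were 0.634 and 0.760, with quartiles at 0.336 and 1.73 in replicate 1 and at 0.405 and 1.76 in replicate 2. Set against the median of all peaks of the same animal, the member median was 0.830 and 0.846, a mean of 0.838 ± 0.012 (SD, n = 2). Near intergenic peaks had medians of 0.873 and 1.11, far ones of 0.320 and 0.444, peaks inside genes 0.705 and 0.820, and promoter peaks 1.95 and 1.81. Members thus stood between near and far intergenic peaks in both animals. All peaks of an animal were put by height into 10 classes of about equal number, with class 10 the highest. Class 10 held 1105 and 763 members, or 5.68% and 4.86% of members, against 28.9% and 27.9% of promoter peaks.

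Members were richer in G and C and poorer in repeats than the whole of the sequence that meets the rule. Their mean GC content was 53.6% and 51.9%, against 42.2% for all sequence that meets the rule. Repeat-masked bases made up 13.1% and 10.3% of a member on average, against 42.4% of the sequence. CpG density rose with height, from 1.78 and 1.45 per 100 bp in height class 1 to 4.02 and 3.88 in class 10. In class 10, 15.3% and 17.04% of members lay within 1 kb of the start of a RefSeq gene. For non-coding starts in GENCODE, again within 1 kb, the shares were 8.87% and 10.7%. Over all members these shares were 7.62% and 7.57%, and 4.28% and 4.32%. RefSeq places 16.5% and 16.4% of members inside a gene, so the intergenic label depends on the annotation.

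Footprints, short stretches protected from cutting, were found in 78.9% and 72.6% of members, a mean of 75.8% ± 4.5 (SD, n = 2). There were 38508 and 29606 in all, or 1.98 and 1.89 per member. Near intergenic peaks had a footprint in 82.5% and 79.8% of cases and far ones in 61.4% and 56.7%. Peak height moved with these shares. In height class 1, 23.0% and 14.3% of members had a footprint, and in class 10 all had.

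At matched height the classes came closer together, except for promoters at middling heights. In height class 5 a footprint was found in 89.8% and 89.1% of members, in 86.6% and 86.5% of near intergenic peaks, and in 92.3% and 92.4% of far ones. Promoter peaks of that height had a footprint in 67.2% and 54.9% of cases. A gap also stood in height class 7, with 96.2% and 96.4% of members and 61.4% and 64.9% of promoter peaks. In both classes far intergenic peaks, members, near intergenic peaks and promoter peaks followed in the same falling order in both animals.

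Of replicate 1 members, 12686 or 65.2% overlapped a peak of replicate 2 by at least 1 bp. Of replicate 2 members, 12694 or 80.8% overlapped a peak of replicate 1, whose list is longer. For all peaks the shares were 65.8% and 80.4%, so members were shared about as often. Near intergenic peaks were shared in 64.8% and 83.2% of cases and far ones in 52.2% and 67.0%. Of the 6783 and 3009 unshared members, 9.92% and 12.5% lay in a stretch where the other animal's cut rate passed a false discovery rate of 0.05.

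Sharing also moved with height, from 11.2% and 35.5% in height class 1 to 99.9% and 100% in class 10. In class 5, members were shared in 69.4% and 90.7% of cases, near intergenic peaks in 54.2% and 87.8%, peaks inside genes in 59.2% and 85.3%, and far intergenic peaks in 87.4% and 91.6%. At that height far intergenic peaks were shared most often and near ones less often than members, although far peaks were shared least over all heights. Across the 12799 overlapping pairs of members, log2 heights of the animals had a Pearson correlation of 0.916, given as a description since the pairs share libraries. Members with at least 50% of their 32 bp stretches found elsewhere numbered 577 and 273, or 2.98% and 1.74%. These were low, with medians of 0.211 and 0.356, and were shared in 32.2% and 67.4% of cases.

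**Figure D2:**
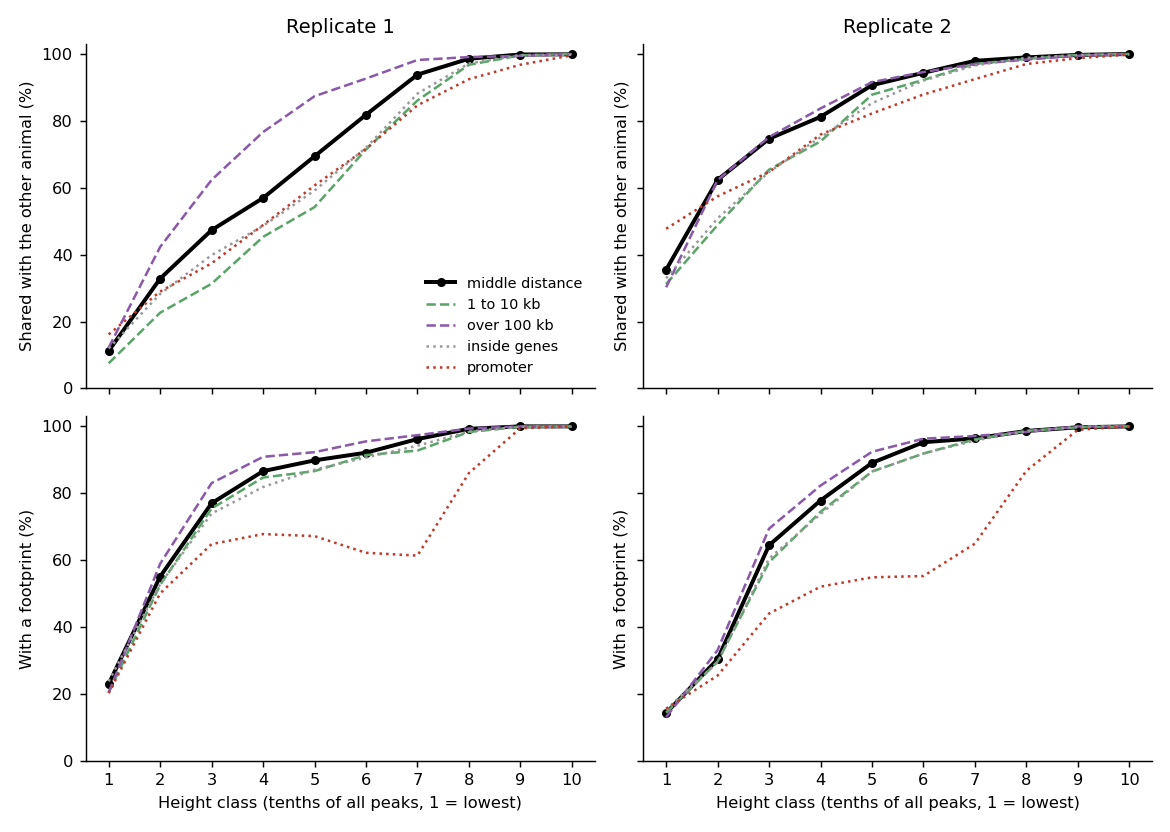
Share of peaks that overlap a peak of the other animal (top) and share with a footprint (bottom), in percent, by height class, where class 1 holds the lowest of all peaks of that animal. Lines are peak classes by position. Members (black) go from 23.0% and 14.3% with a footprint in class 1 to 100% in class 10, while promoter peaks stay at 67.2% and 54.9% in class 5.

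The CTCF consensus was 120.1 and 150.9 times as frequent in members as in peak-free windows beside them. Searched on both strands, it was found in 1529 and 1548 members, or 7.85% and 9.86%, a mean of 8.86% ± 1.4 (SD, n = 2). Windows of the same width starting 2 kb to the right of members, free of peaks and in sequence that meets the rule, held it in 0.0654% and 0.0653% of 16815 and 13780 cases. Of its occurrences in members, 92.0% and 81.9% had their centre base in a footprint. Promoter peaks held the motif in 1.09% and 1.20% of cases, near intergenic peaks in 8.91% and 11.5%, and far ones in 3.02% and 3.99%. Few of the windows held the consensus, so the ratios are rough, and sites in neighbouring peaks were left out of them. The windows had a lower GC content, 44.6% in both animals, than members.

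Members with the CTCF consensus were higher and more often shared than those without. Their median heights were 2.21 and 1.46, against 0.596 and 0.711. They were shared in 92.7% and 92.2% of cases, against 62.8% and 79.6%. By height, the share with CTCF was 1.17% and 2.81% in class 1. It peaked at 20.6% in class 9 of replicate 1 and at 18.2% in class 8 of replicate 2. In class 10 it was 18.1% in replicate 1 and 9.70% in replicate 2. By distance it was 10.9% and 13.8% between 10 and 20 kb and 3.85% and 4.96% between 90 and 100 kb.

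Of the short motifs of neuronal and glial factors, some were commoner in members than in the windows and others rarer. Among the commoner were the next 3. CAGATG, an E-box bound by NEUROD and related basic helix-loop-helix factors, was found in 21.4% and 24.2% of members and in 13.1% and 14.1% of windows. TTGGCA, an arm of the NFI site, was in 18.2% and 21.3% of members, against 7.80% and 8.66% of windows. CAGCAGG, read here as a site of ZIC zinc finger factors, was in 14.0% and 14.8%, against 4.48% and 4.82%. These 3 also stood in footprints more often than the same letters read backwards. For CAGATG the shares of occurrences in footprints were 29.8% and 29.8%, against 12.7% and 9.52% backwards. For TTGGCA they were 35.2% and 31.4%, against 15.3% and 10.7%, and for CAGCAGG 36.6% and 31.9%, against 25.6% and 18.6%. Backwards, TTGGCA occurred 365 and 345 times, against 4118 and 3987 forwards, and CAGCAGG 78 and 70, against 3029 and 2587. Both hold a CpG only when read backwards, so the backwards letters are not a matched baseline.

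Other motifs differed from this pattern. TAATTA, a core site of homeodomain factors, was in 2.41% and 3.49% of members and in 4.40% and 5.09% of windows, so it was rarer in members. Also rarer in both animals were CATATG, in 3.75% and 4.46% of members against 4.88% and 5.34% of windows, and the OTX site, in 3.92% and 4.67% against 6.70% and 7.10%. The same held for the SOX site, in 1.89% and 2.08% against 2.79% and 2.98%, and for the site searched for ROR and ERR factors, in 2.58% and 3.02% against 3.40% and 3.61%. Sites searched for POU, FOX, and LHX and LMX factors had ratios of members to windows between 0.486 and 0.901. Members held 53.6% and 51.9% GC, against 44.6% in the windows, and what part this has in the motif shares was not tested. CATATG, though rarer, stood in footprints in 24.9% and 25.2% of occurrences, against 8.59% and 6.98% backwards. The AP-1 site TGANTCA was commoner, in 6.46% and 7.55% of members against 4.85% and 5.32% of windows. Its occurrences stood in footprints in 9.16% and 8.96% of cases, against 17.8% and 12.8% backwards. The MEF2 site was also commoner, in 0.426% and 0.681% against 0.238% and 0.305%. The E-box CAGCTG was in 15.1% and 13.8% of members, against 7.30% and 7.91% of windows. Its occurrences stood in footprints less often than when read backwards, 23.7% and 19.8% against 29.4% and 24.4%. Backwards it occurred only 85 and 78 times, against 3235 and 2363 forwards, and holds a CpG, so this is not a matched comparison. The letters CAGCTG are also part of the longer E-box CAGCTGTT searched for OLIG and ATOH factors. The cyclic AMP response element TGACGTCA was rare, in 0.375% and 0.522% of members and 0.0833% and 0.152% of windows, with 54.1% and 47.0% of its occurrences in footprints. The SP and KLF site was in 1.62% and 1.38% of members and in 13.9% and 14.4% of promoter peaks. A match is only a match of letters, and which factor was bound was not measured.

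**Figure D3:**
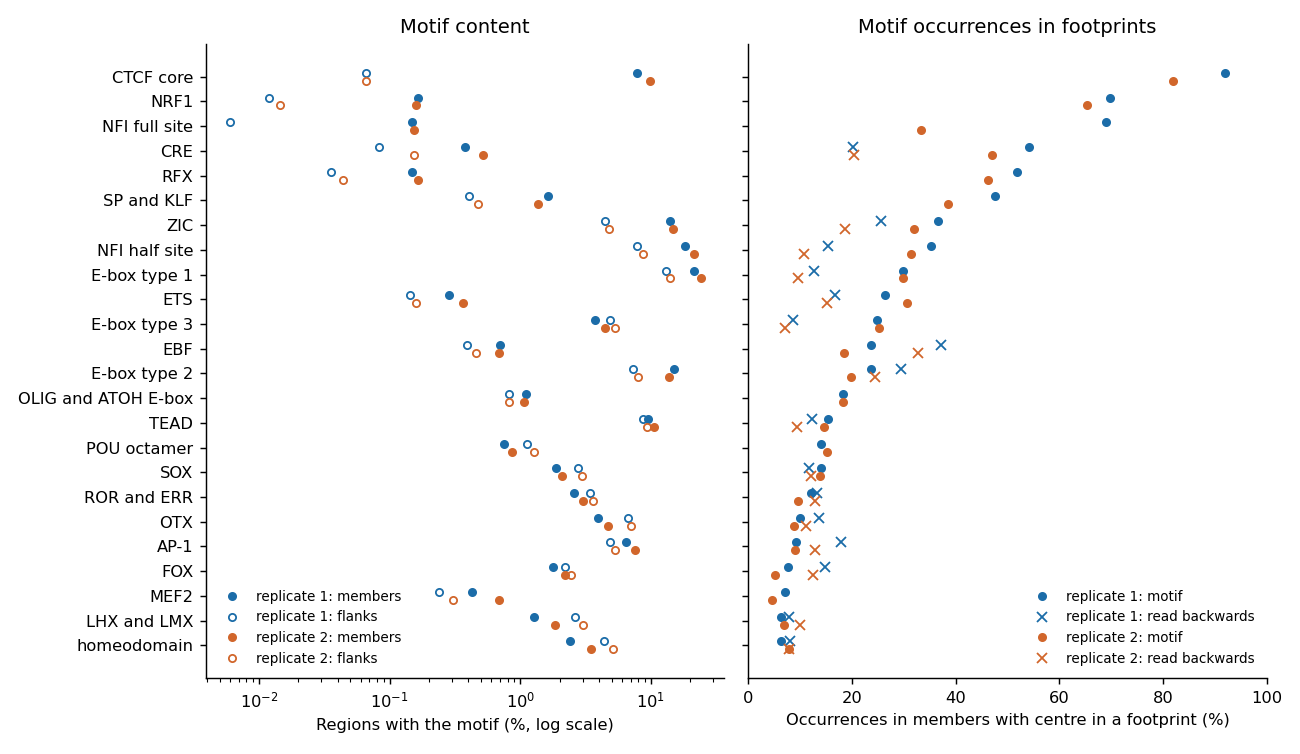
Left, percent of members (filled) and of neighbouring windows (open) with each of 24 motifs, on a log scale, with values of 0 not drawn. E-box type 1 is CAGATG, while type 2 is the E-box CAGCTG, and the letters of type 3 are CATATG. Right, percent of occurrences in members whose centre lies in a footprint (filled) and the same for the motif read backwards (crosses, drawn from 50 occurrences on). CTCF is in 7.85% and 9.86% of members, with 92.0% and 81.9% of its occurrences in footprints.

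Members were spread over many genes but gathered near some. Assigned to the nearest protein-coding start, which does not show which gene an element acts on, they fell to 6784 and 6118 genes of the 13849 with any such sequence, and 5656 genes had a member in both animals. Genes with 10 or more numbered 225 and 107 and held 15.1% and 8.16% of members. The nearest gene had a peak in its own promoter window for 78.6% and 76.1% of members. Sequence nearest to genes with a promoter peak was 64.0% and 60.2% of the total, and held 46.7 and 38.8 members per Mb, against 22.6 and 18.5 elsewhere. Among genes with such sequence but no member, 54.0% and 50.5% had a promoter peak, and among those with 10 or more, 85.8% and 81.3%.

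The most members lay near Zdhhc25, which encodes a protein of the palmitoyltransferase family, with 48 and 22 over 145.2 kb of sequence. No promoter peak was found at this gene in either animal. Zfp706, a small zinc finger gene, had 42 and 17 members, and its neighbour Ywhaz, which encodes the signalling adaptor 14-3-3 zeta, had 21 and 19. Kcna5, a voltage-gated potassium channel gene without a promoter peak, had 25 and 19, of which 18 in each animal were shared. Dapl1 had 19 and 17, and 17 in each animal were shared. Calcoco1, which encodes a coiled-coil coactivator and autophagy protein, had 20 and 17, with median heights of 2.03 and 2.43. Chd7, a chromatin remodeller gene, had 20 and 15, of which 5 and 4 were in height class 10.

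The densest of these genes was Psd2, which encodes an exchange factor for ARF GTPases, with 28 and 17 members in 35.0 kb, or 79.9 and 48.5 per 100 kb. At the other end, the animals differed most near Lemd2, a gene of the inner nuclear membrane, with 34 and 3 members. Of the 34, 31 were not shared, with a median height of 0.401, and 1 of these 31 lay in a stretch past the false discovery rate in replicate 2. The lists were also unequal near Adra2c, an adrenergic receptor gene (24 and 13), Kif13b, a kinesin gene (24 and 11), Coro2b (22 and 12) and Cd83, an immunoglobulin superfamily gene (20 and 13). The authors deposited 2 peak lists for each animal, and the larger is used here. In the smaller, 5 of the genes named above had a mean more than 1.5 times lower: Zdhhc25 (30 and 16), Kcna5 (16 and 12), Adra2c (16 and 7), Kif13b (14 and 5) and Cd83 (11 and 9). With equal numbers of peaks taken from both animals, the mean near Zfp706 was 16.5. Near Gm21860 on chromosome Y there were 22 and 12 members. Of these, 16 and 8 had at least 50% of their 32 bp stretches elsewhere in the genome. Of the members near the other genes of this group, only 1, near Lemd2 in replicate 1, passed that limit.

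**Figure D4:**
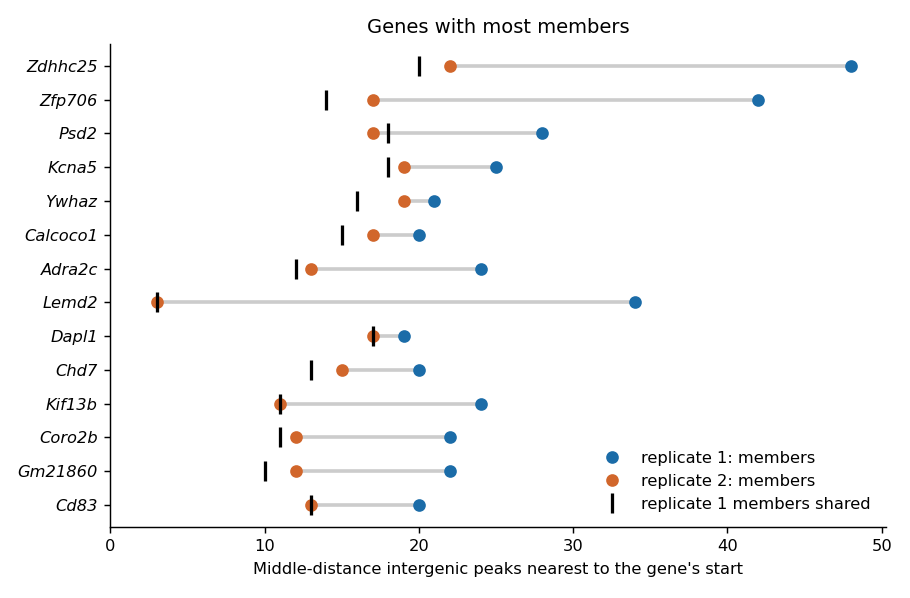
Number of members nearest to each of 14 of the 15 protein-coding genes with the highest mean number, in replicate 1 and replicate 2 (circles), and the number of replicate 1 members that are shared (bars). Lemd2, with 34 and 3, shows the widest gap, and Dapl1 and Ywhaz differ by 2 members each.

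In 3 of the 5 densest windows of 50 kb, replicate 1 had more unshared than shared members, and these were low. Between Fam19a5 and Zdhhc25, at chr15:88537281-88582380, replicate 1 had 37 members and replicate 2 had 13. All 13 were shared, with heights between 0.731 and 7.67, and the 24 unshared ones of replicate 1 lay between 0.222 and 0.818. Between Ywhaz and Zfp706, at chr15:36960381-36992946, there were 36 and 12, and the 27 unshared ones of replicate 1 reached at most 0.358. Between Adra2c and Hmx1, at chr5:35305401-35349566, there were 27 and 11, and 17 of replicate 1 were unshared, none above 0.423. The spacing of possible heights was 1.82 times finer in replicate 1, and what part this has in its extra low peaks was not tested.

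A run with high members stood between Kcna5 and Kcna1, potassium channel genes, at chr6:126563941-126611080, with 21 and 13 members. All 13 of replicate 2 were shared, with heights from 1.22 to 12.4. The highest member nearest to Kcna5, 50.7 kb upstream of it, reached 20.8 and 12.4, with 5 and 6 footprints. The next, 28.6 kb upstream, reached 16.4 and 9.08 with 5 footprints in each animal. In the window between Cxxc5, a CpG-binding zinc finger gene, and Psd2, replicate 1 had 31 members, 18 of them shared, and replicate 2 had 17, all shared. The 13 unshared members of replicate 1 there had a median height of 0.959, up to 1.501. The 8 unshared ones between Kcna5 and Kcna1 had a median of 0.856, none below 0.672. Members in general lay close together: 55.8% and 51.5% had another within 5 kb.

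**Figure D5:**
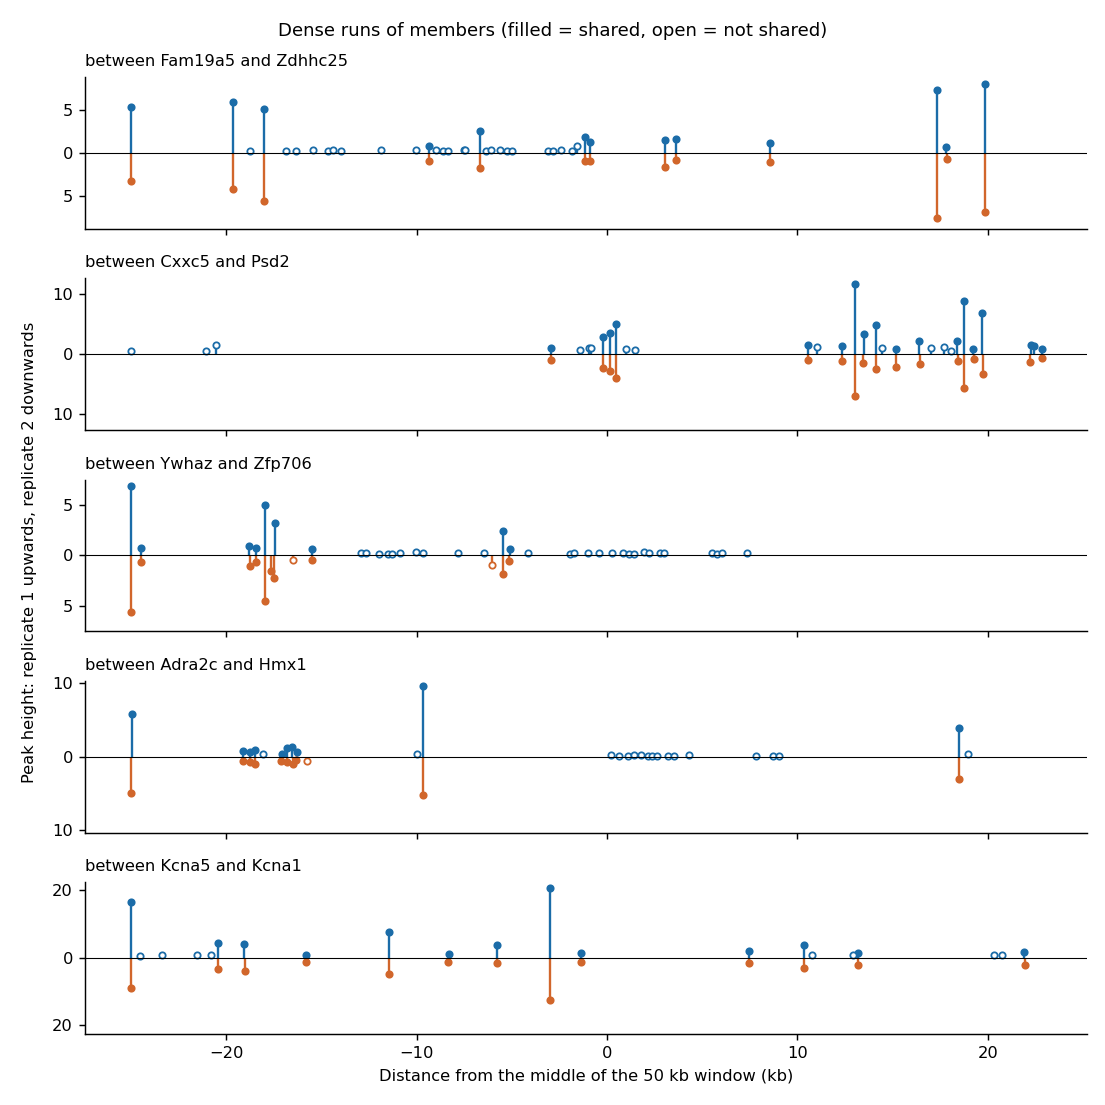
Heights of members in the 5 densest windows of 50 kb, against distance from the window's middle in kb, with replicate 1 drawn upwards and replicate 2 downwards, and filled points for shared members. Panel titles name the nearest protein-coding starts on both sides. In the top panel the 24 open points of replicate 1 are at most 0.818 high, and the 13 members of replicate 2 are all filled.

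Genes that mark granule cells, Purkinje cells and astrocytes had members more often than protein-coding genes as a whole, but so did most other lists, and these 3 had longer eligible sequence. Over all 21829 protein-coding genes, 31.1% and 28.03% had a member, the median number was 0, and the median length of eligible sequence was 5.47 kb. Of 20 granule cell genes, with a median of 29.98 kb, 12 and 11 had one, with a median of 1 in both animals and 47.0 and 42.4 members per Mb, against 38.0 and 30.7 over all genes. Of the 14 lists, 9 lay above the share over all genes in both animals. Among them were endothelial and mural (66.7% and 50%), forebrain (50% and 45%) and immediate early genes (73.3% and 53.3%). The striated muscle list lay above that share in replicate 2 alone (30% and 35%). Neurod2, a neuronal transcription factor gene, had 10 and 8, of which the highest, 34.9 kb downstream, reached 19.8 and 9.26. The authors' smaller peak lists left it 6 and 2. Neurod1, a related factor of granule cells, had 5 and 7, and its 5 shared members lay 25.9 to 80.5 kb upstream with heights up to 7.98 and 5.14. Tiam1, an activator of the GTPase Rac, had 5 and 8.

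Of 20 Purkinje cell genes, with a median of 64.5 kb, 14 and 13 had a member, at 41.9 and 31.7 per Mb. En2, a homeobox gene of the early hindbrain and midbrain, had 14 and 6, and Lhx1, a LIM homeobox gene, 7 and 6. Of 15 genes of interneurons and unipolar brush cells, 9 in each animal had one, at 30.9 and 25.2 per Mb, with Pax2 at 7 and 4. In the smaller lists En2 had 9 and 3, and Pax2 had 3 in each animal. Of 17 astrocyte and Bergmann glia genes, with a median of 50.6 kb, 11 and 12 had one, at 49.7 and 43.7 per Mb. Slc1a3, the glutamate transporter of Bergmann glia, had 12 and 11, and 8 and 7 in the smaller lists. Its highest in replicate 1, 81.0 kb downstream, reached 6.01 and 3.96, and its highest in replicate 2, 81.6 kb upstream, reached 2.85 and 5.06. Sox9, a transcription factor gene of astrocytes, had 7 and 4, none above 0.585 and 0.642, and 1 in each animal in the smaller lists.

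Of 18 oligodendrocyte genes, 5 and 4 had a member, beside a median of 7.17 kb of sequence. Mbp, which encodes myelin basic protein, had 5 in each animal, and the highest, 20.3 kb upstream, reached 12.2 and 10.2. Of 16 microglia and macrophage genes, 2 in each animal had one, C1qa and C1qb, complement genes that lie close together on chromosome 4, at 29.2 per Mb. Of 18 endothelial and mural genes, 12 and 9 had one, at 25.6 and 22.5 per Mb. Cdh5, the cadherin of vessel walls, had 7 in each animal, all shared and upstream, with heights up to 3.57 and 2.03. Its promoter peak was 0.233 high in replicate 1, and none was found in replicate 2.

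Immediate early genes, which respond to neuronal activity, had the highest density of the 14 lists in replicate 1, 101.1 members per Mb, against 58.7 in replicate 2, where the striated muscle list was higher. Of 15 genes, 11 and 8 had a member. Fos had 10 and 12, of which the highest, 12.3 kb downstream at chr12:85486121-85486240, reached 13.3 and 9.26. A pair upstream of Fos, 18.5 and 17.9 kb away, reached 7.57 and 6.20, and 6.50 and 6.90. Nr4a3, an orphan nuclear receptor gene, had 7 and 4, with 1 far above the rest, 65.4 kb upstream, at 27.3 and 16.2. Btg2, an antiproliferative gene, had 7 and 3. In the smaller lists Nr4a3 had 2 and 3, and Btg2 had 3 in each animal, and with equal numbers of peaks the mean for Nr4a3 was 3.5.

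Among 30 neural developmental transcription factor genes, 19 and 17 had a member, at 37.1 and 35.0 per Mb. Uncx, a homeobox gene, had 11 and 14, and Barhl2 had 8 and 13, more in replicate 2 in both cases. Among 25 axon and adhesion genes, 13 and 12 had one, at 19.9 and 12.8 per Mb, with Plxna2, a semaphorin receptor gene, at 10 and 7. Lists of other tissues gave 10 and 9 of 20 forebrain genes (35.0 and 23.0 per Mb), 4 and 3 of 20 liver genes (20.8 and 9.24), 6 and 7 of 20 striated muscle genes (47.3 and 63.1), and 3 and 2 of 20 blood genes (24.0 and 12.02). Myog, a muscle transcription factor gene, had 3 and 6 members, up to 8.05 and 5.81 high. Per Mb the muscle list stood above the granule cell list in both animals.

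Density differed between chromosomes. Among the 19 autosomes members ranged from 32.3 to 63.2 per Mb in replicate 1 and from 26.0 to 52.3 in replicate 2, with chromosome 11 the highest in each. Chromosome X, present once in males, held 15.8 and 10.8 per Mb, with median heights of 0.255 and 0.415, below the autosomal 0.656 and 0.780. By side, 59.97% and 59.78% of members lay upstream of the nearest start. Upstream positions made up 62.5% of the sequence, so density was slightly lower there, 36.5 and 29.3 per Mb, than downstream, 40.7 and 32.9.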

How the data were processed

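DNase-seq peak lists, footprints and false discovery rates were available for cerebellum of 2 mice, 1 library each. Per the labels and file descriptions, the deposited files are on mm10 and derive from each animal's own alignments without pooling. Aligner, peak caller and footprint caller were not given in the sources used here. The height of a peak is a signal the authors deposited, on a grid of equal steps in each animal, and its scaling is not stated, so depth is unknown and no interval was computed. The authors deposited false discovery rates, a p-value type of measure, and stretches at or below 0.05 were merged. The p-value entry the authors deposited with footprints is 0.01 in each case, and footprints were used by position alone.

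The larger peak list of each animal was used. Genes were those of GENCODE M21 (55413 of all types, 21829 protein-coding with 54327 starts). Sequence and RefSeq genes came from GRCm38.p6, and RefSeq starts are those of genes, not of single transcripts. A promoter peak lay within 1000 bp of a protein-coding start. Peaks were shared at 1 bp of overlap. Height classes were taken over all peaks of an animal. Of the members, 78 and 36 were shorter than 32 bp and have no copy measure. Python 3.11.15, numpy 2.4.6 and pandas 2.3.3 were used, and the code was tested on simulated data. No test was made, since 2 animals of 1 group allow none and peaks are not replicates. Members, the 14 gene lists and the 24 motifs were chosen with earlier results of these data known. Named genes were the 15 with the highest mean number of members, those nearest to the 10 highest shared members and to the 5 highest with CTCF in a footprint in both animals, up to 4 per list, and those beside the 5 densest windows. Members of single genes were described after their values were seen. Of these, 1 gene is not reported here.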

Additional observations from a re-analysis of the deposited data

How the results depend on the processing

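With 2 animals, 1 library each and unknown depth, differences of a few percent between positions are description. No paired analysis was possible because both animals form 1 group. Values are means of both animals. The share of all peaks was 13.5% with the smaller lists, 13.4% with the same number of peaks in both animals, 13.6% with the whole peak outside genes, 16.2% with starts of all transcripts and 5.92% with limits of 20 to 50 kb, and 13.7% to 13.9% with 1 animal left out. Density was 22.0 per Mb with the smaller lists and 24.2 with starts of all transcripts (30.7 to 38.0 with 1 animal). The height ratio was 0.869 with the smaller lists, 0.868 with equal numbers, 0.658 with all starts and 0.854 at 20 to 50 kb (0.830 to 0.846 with 1 animal). The share with a footprint was 90.3% with the smaller lists, 82.0% with equal numbers and 69.2% with all starts (72.6% to 78.9% with 1 animal). With equal numbers the animals lay further apart, at 91.3% in replicate 1 and 72.6% in replicate 2. The upstream share was 59.6% with the smaller lists, 59.4% with equal numbers, 60.01% with whole peaks, 51.9% with all starts and 60.8% at 20 to 50 kb (59.78% to 59.97% with 1 animal). Genes with a member numbered 3738 at 20 to 50 kb (6118 to 6784 with 1 animal). The CTCF share was 12.1% with the smaller lists and 6.66% with all starts (7.85% to 9.86% with 1 animal). The cause was not tested. Mean sharing moved by less than the spread between animals in each alternative (65.2% to 80.8% with 1 animal). With equal numbers of peaks the animals lay closer, at 78.3% in replicate 1 and 75.1% in replicate 2. Of 68 named genes, 58 kept a mean count within 1.5 times with equal numbers of peaks, 35 with the smaller lists, where the other 33 fell, and 68 with whole peaks.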

Other observations

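RefSeq lists elements whose enhancer activity was tested in transgenic mouse embryos, and 152 of these have their midpoint outside genes at middle distance. A member was found in both animals on 59 of them and in neither on 85. Hindbrain activity, the embryonic region that gives rise to most of the cerebellum, is listed for 24 of the 59 (40.7%), 12 of the 85 (14.1%) and 41 of all 152 (27.0%). These shares were not tested, and a few of the listed elements overlap each other. Elements with hindbrain activity and a member in both animals included mm979 near Ly86, with members up to 10.2 and 7.11 high, mm1496 near Tob1 (9.31 and 12.6), mm1445 near Btg2 (8.18 and 6.66), mm1722 near Polr1a (8.03 and 7.03) and mm981 near Pipox (5.95 and 5.10). All of these except mm979 are also listed for forebrain. Elements listed for other tissues also held members, among them mm210 near Coro2b, listed for the nose (14.2 and 8.33), mm1017 near Wnt10a, listed for the heart (11.6 and 6.09), and mm260 near Fos, listed for the heart (7.57 and 6.90). In all, 137 and 105 members lay on such elements.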
